A study of Danio rerio with 4 samples.

Results

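The 7 zebrafish genes rho, rom1b, gnb1a, pde6a, grk1b, pdcb and rdh8b were followed in the eye after the optic nerve was cut. They belong to the cascade with which rod photoreceptors turn light into a signal. They were grouped by function, but were chosen with earlier results of these data known. Every probe carrying the accession of one of these genes was taken, or its symbol where the accession matched no gene record. This gave 15 of the 14067 zebrafish probes on the array. There were 4 probes for rho, 4 for pde6a, 3 for gnb1a and 1 for each of the other genes, so 7 genes stood among 5175 with a gene name.

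In a rod, light changes the shape of rhodopsin, the opsin encoded by rho, in the stacked discs of the outer segment. Rhodopsin then switches on the G protein transducin, which frees the catalytic subunits of phosphodiesterase from inhibition, and these break down cyclic GMP, so that channels in the outer membrane close. Rhodopsin kinase, phosducin and the enzymes that reduce retinal help to end the response and to restore the pigment, roles known mainly from mammals.

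The fish were pet-store wild-type zebrafish (zdr) kept on 12 hours of light and 12 of dark, and the sampled tissue was the eye without lens and sclera. In injured fish the muscles around the eye and the optic nerve were severed under MS-222 anaesthesia. Sham fish had the muscles cut with the nerve left whole, so both groups carried the muscle wound, and control fish had no treatment. RNA of several fish was pooled for each sample at 3, 24 or 168 h after surgery, and how many fish a pool held was not given in the sources used here. Each time point had 3 arrays, each with 1 injured and 1 sham pool. A further 2 arrays set control pools against each other and shared 1 pool, so they held 3 pools, whereas the labels speak of 4 control samples.

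All values were log2 intensity ratios of injured over sham, so -1 means that the injured pool had the lower signal by a factor of 2. The sign rests on the dye of each pool as the array names give it. By these names Cy5 labelled the sham pool on 6 arrays and the injured pool on 3, 1 at each time, whereas the sample labels name Cy5 for injured RNA throughout. With Cy5 read as injured on every array and no dye effect, 1 of the 15 probes was lower at 168 h at an unadjusted p under 0.05, and the signs of 10 reversed. The share of all probes lower under that reading was not counted. Fitted values came from limma with 1 injury coefficient per time and 1 dye effect, each with its standard error (SE). Per the labels the pools of a time point are biological replicates. Because whole eyes without lens and sclera were sampled, fewer rods and less RNA per rod cannot be told apart.

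The rod probes differed in signal strength. Detection of a spot meant a foreground above the 95th percentile of that array's empty positions. The probes pde6a probe 2, gnb1a probe 3, grk1b and rho probes 1, 2 and 3 were detected in both channels of all 9 arrays. The rdh8b probe was detected in 0 of 9 injured and 3 of 9 sham channels, pde6a probe 3 in 1 and 1, and rom1b in 5 and 5. The brightest probes also held saturated pixels, up to 75% of a spot for rho probe 2 and up to 40% for gnb1a probe 3, and the other 13 had none.

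Most of the fitted rod values lay below 0 at each time, and they lay furthest below it at 168 h. At 3 h 11 of 15 fitted values were below 0, against 50.1% of all probes. At that time 3 of the 15 probes were below 0 on all 3 arrays, against 10.5% of all probes, and 0 of 15 were lower at an unadjusted p under 0.05 in limma, against 2.18% of all probes, and fitted values ran from -0.45 to 0.51. At 24 h 1 of 15 was lower at that threshold, against 2.77% of all probes, and 9 of 15 were below 0 on all 3 arrays, against 11.7%. Of the fitted 24 h values 14 of 15 were below 0, against 50.9% of all probes. At 168 h 10 of 15 were lower at an unadjusted p under 0.05, against 3.60% of all probes, and 8 of 15 were below 0 on all 3 arrays, against 12.0%. The fitted 168 h values were again below 0 for 14 of 15, against 49.8% of all probes. The 10 include rdh8b, which was detected in 0 of 3 injured and 1 of 3 sham channels at 168 h. None was higher at that threshold at any of these times.

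No probe on the array, rod or other, passed after Benjamini-Hochberg adjustment over all probes in limma. The calls were 0 of 14067 at 3 h, 0 of 14065 at 24 h and 0 of 14067 at 168 h. Without adjustment 630 probes (4.48%), 703 (5.00%) and 1101 (7.83%) stood under 0.05 in limma. The smallest adjusted p among the 15 rod probes was 0.397, at 168 h. The central 95% of all probes ran from -0.82 to 0.86 at 168 h, and the median probe stood at 0.00.

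The 168 h count depended on which arrays were used. Without 168 h array 2 it was 3 of 15, against 2.35% of all probes, and without 168 h array 3 it was 5 of 15, against 2.64%. Without array 1 it was 11 of 15, against 4.36%. The 3 probes left without array 2 were pde6a probe 2, gnb1a probe 1 and pdcb.

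**Figure D1:**
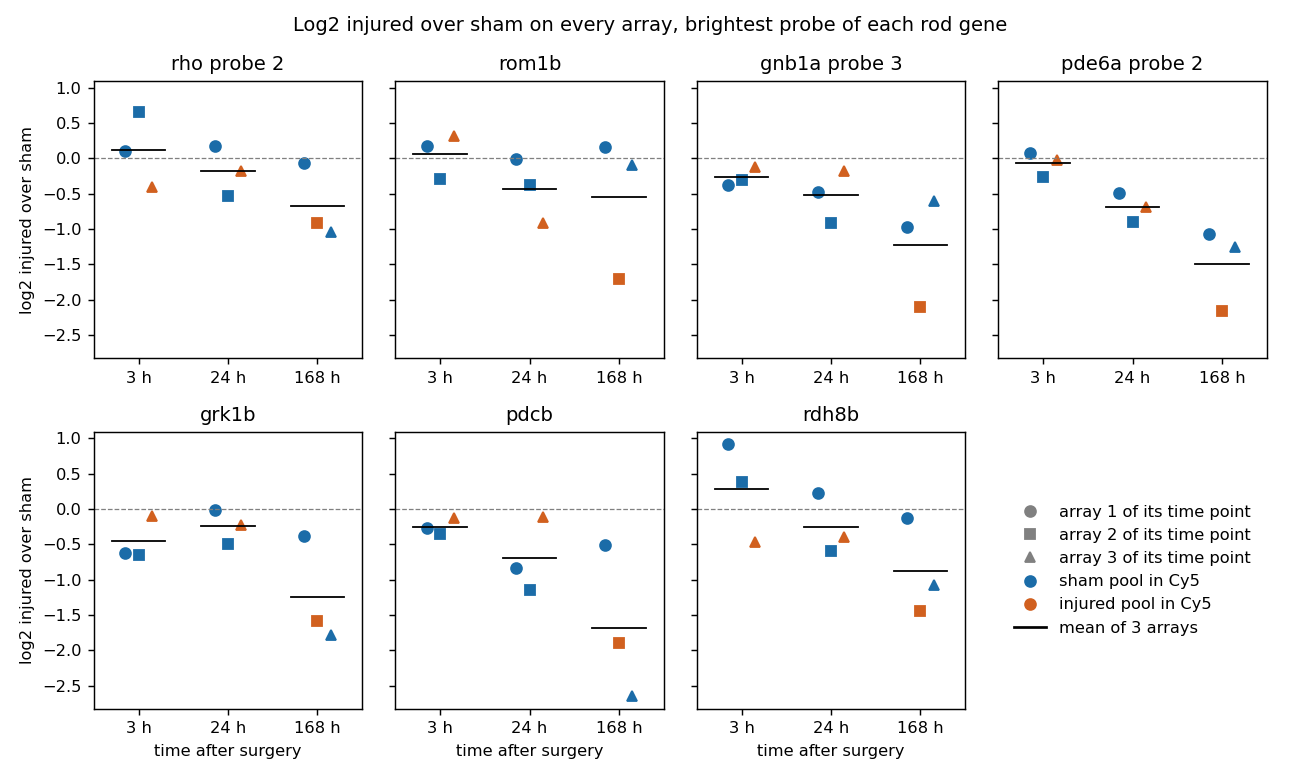
Log2 injured over sham (y axis) by time after surgery (x axis) for the brightest probe of each gene. Each point is 1 array, its shape gives the array number within its time point, its colour the pool in Cy5, and the line is the mean of the 3 arrays. At 168 h all 3 points of rho, gnb1a, pde6a, grk1b, pdcb and rdh8b lie below 0, and rom1b has 1 point above it. Those of rdh8b rest largely on undetected spots.

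Rhodopsin, the light-absorbing protein itself, was lower on arrays 2 and 3 of 168 h by all 4 probes and near 0 or above on array 1. For rho probe 1 the log2 ratios at 168 h were 0.30, -1.03 and -2.18 on arrays 1, 2 and 3. For rho probe 3 they were 0.43, -1.86 and -2.43, and for rho probe 4 they were 0.53, -1.62 and -1.58. These 3 probes therefore had array 1 above 0 and arrays 2 and 3 well below it. On array 1 rho probe 4 was detected in neither channel.

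The brightest of the rhodopsin probes, rho probe 2, gave -0.07, -0.91 and -1.05 on the same arrays. It is also the one with saturated pixels, which made up 32% to 65% of the spot in 5 of the 6 channels at 168 h and 0% in the remaining one, the injured channel of array 3. The fitted values at 168 h were -0.92 ± 0.39 for probe 1, -0.74 ± 0.32 for probe 2, -1.23 ± 0.48 for probe 3 and -0.91 ± 0.41 for probe 4 (SE). Their unadjusted p in limma was 0.0326, 0.0363, 0.0223 and 0.0417, and their adjusted p lay between 0.572 and 0.626. Without array 2 the 4 values lay between -0.75 and -0.36, and without array 3 between -0.72 and -0.37, all with an unadjusted p above 0.05.

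Earlier, rhodopsin ratios lay on both sides of 0 at 3 h, and at 24 h probes 1 and 4 were below 0 on all 3 arrays. At 3 h rho probe 3 gave -1.27, 0.21 and 0.31, and rho probe 2 gave 0.10, 0.65 and -0.40. At 24 h rho probe 1 gave -0.73, -0.50 and -0.02, rho probe 2 gave 0.18, -0.53 and -0.18, and rho probe 4 gave -0.39, -0.37 and -0.21. The groups of 3 arrays overlapped 0 for all 4 probes at 3 h and for probes 2 and 3 at 24 h. The fitted 24 h values ran from -0.37 for probe 1 to -0.12 for probe 3.

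The disc rim gene rom1b, whose product shapes the edge of the outer segment discs together with peripherin, differed between arrays. At 168 h it gave 0.16, -1.70 and -0.09, so array 2 alone was low. The probe was above the empty positions in 0 of 3 injured and 1 of 3 sham channels at 168 h, so no fold is given (adjusted p = 0.673 in limma). At 24 h its ratios were -0.01, -0.38 and -0.92, all 3 below 0, with a fitted value of -0.55 ± 0.34.

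The G protein subunit gnb1a, the counterpart of the mammalian beta subunit of rod transducin that other cells also use, was below 0 on every 168 h array by 2 of its 3 probes. Its brightest probe, gnb1a probe 3, gave -0.97, -2.11 and -0.61, and gnb1a probe 1 gave -1.11, -1.53 and -2.70. None of these 6 values reached 0. The fitted values were -1.26 ± 0.33 for probe 3 and -1.69 ± 0.33 for probe 1 (unadjusted p = 0.0018 and 0.000143, adjusted p = 0.397 for both in limma). On array 3, where probe 1 was lowest, its injured channel did not exceed the empty positions, so that ratio rests on an undetected spot.

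These probes of gnb1a did not rest on the same arrays. Probe 3 was lowest on array 2, where 21% of the pixels of the sham spot were saturated, and without that array it stood at -0.61 (unadjusted p = 0.162 in limma). Probe 1 was lowest on array 3, and stood between -2.12 and -1.32 with each 168 h array left out. The dimmer gnb1a probe 2 gave -1.56, 0.78 and -0.26, overlapping 0, with a fitted value of -0.28 ± 0.41. On array 3 it was detected in neither channel.

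At 24 h all 3 gnb1a probes were below 0 on all 3 arrays, but probe 2 was detected in only 1 of 3 sham channels. Probe 1 gave -0.68, -1.25 and -0.27, and probe 3 gave -0.48, -0.91 and -0.19. Their fitted values were -0.64 ± 0.33 and -0.56 ± 0.33, with unadjusted p = 0.0745 and 0.116 in limma.

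The phosphodiesterase gene pde6a, which encodes a catalytic subunit of the rod enzyme that breaks down cyclic GMP, had the lowest unadjusted p of the 15 probes at both 24 h and 168 h. For pde6a probe 2 the ratios at 168 h were -1.07, -2.15 and -1.25. At 24 h they were -0.49, -0.90 and -0.68, and at 3 h they were 0.07, -0.26 and -0.03. The 3 h, 24 h and 168 h arrays of this probe did not overlap each other, with the 168 h values lowest and the 3 h values highest. How many of all probes are separated in this way was not counted, so it cannot be set against a share. The differences between times for this probe had an adjusted p of 0.928 or above in limma.

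The fitted value of pde6a probe 2 was -0.74 ± 0.30 at 24 h (unadjusted p = 0.0272, adjusted p = 0.983 in limma) and -1.54 ± 0.30 at 168 h (unadjusted p = 0.000138, adjusted p = 0.397). The 168 h value is a 2.91-fold lower signal in injured eyes. It lay between -1.70 and -1.14 with each 168 h array left out, with an unadjusted p of 0.0151 or less. The probe was detected in both channels on every array, at 4.79 times the empty limit or more, and had no saturated pixels.

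The other 3 pde6a probes did not share this pattern. At 168 h pde6a probe 1 gave 0.46, -1.65 and 1.65, and probe 4 gave 0.37, -0.37 and 0.51, each on both sides of 0. Probe 3 gave -0.61, -0.72 and -0.16 but was above the empty positions in 0 of 3 injured and 1 of 3 sham channels, so no fold is given (adjusted p = 0.780 in limma). All 3 were dim at 168 h: probe 1 was detected in 2 of 3 injured and 1 of 3 sham channels, and probe 4 in 1 and 2. Their ratios at that time therefore rest largely on undetected spots, although the injured channel of probe 1 was detected on array 3. On array 1 probe 4 was detected in both channels and gave 0.37, where probe 2 gave -1.07. At 24 h probe 1 was detected in 3 of 3 injured and 3 of 3 sham channels. There it gave -0.51, 0.18 and 0.14, on both sides of 0, with a fitted value of -0.22 ± 0.42, unlike probe 2.

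Rhodopsin kinase and phosducin act on the far side of the light signal. The kinase gene grk1b, whose product tags light-activated opsin so that it can be shut off, gave -0.38, -1.58 and -1.78 at 168 h. Phosducin, the product of pdcb, binds the beta and gamma subunits of transducin, and its probe gave -0.51, -1.90 and -2.65. All 6 values were below 0, and in both genes array 1 was nearest to 0.

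The fitted 168 h value was -1.24 ± 0.33 for grk1b (unadjusted p = 0.00203) and -1.64 ± 0.38 for pdcb (unadjusted p = 0.000573), each with adjusted p = 0.397 in limma. With each 168 h array left out, grk1b lay between -1.68 and -0.94 and pdcb between -2.27 and -1.20. The grk1b value without array 2 had an unadjusted p of 0.0661, and pdcb without array 1 had an adjusted p of 0.0456, the only rod probe to pass with an array left out when all probes were fitted in limma. On 168 h array 3, where pdcb was lowest, its injured channel is the one of 9 that did not exceed the empty positions.

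At 24 h pdcb gave -0.83, -1.14 and -0.11, and grk1b gave -0.01, -0.50 and -0.23. Both were below 0 on all 3 arrays also at 3 h, where pdcb gave -0.27, -0.35 and -0.13 and grk1b gave -0.62, -0.65 and -0.10. The unadjusted p of both genes was above 0.05 at 3 h and 24 h (limma).

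The retinal-reducing enzyme gene rdh8b, whose mammalian counterpart turns all-trans-retinal released by bleached rhodopsin into retinol, was at the edge of detection. At 168 h its ratios were -0.13, -1.45 and -1.07, and at 3 h they were 0.91, 0.38 and -0.46. It was above the empty positions in 0 of 3 injured and 1 of 3 sham channels at 168 h, so its ratios rest largely on undetected spots and no fold is given (unadjusted p = 0.00755, adjusted p = 0.466 in limma). At 3 h and 24 h it was detected in 0 of 3 injured and 1 of 3 sham channels as well.

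**Figure D2:**
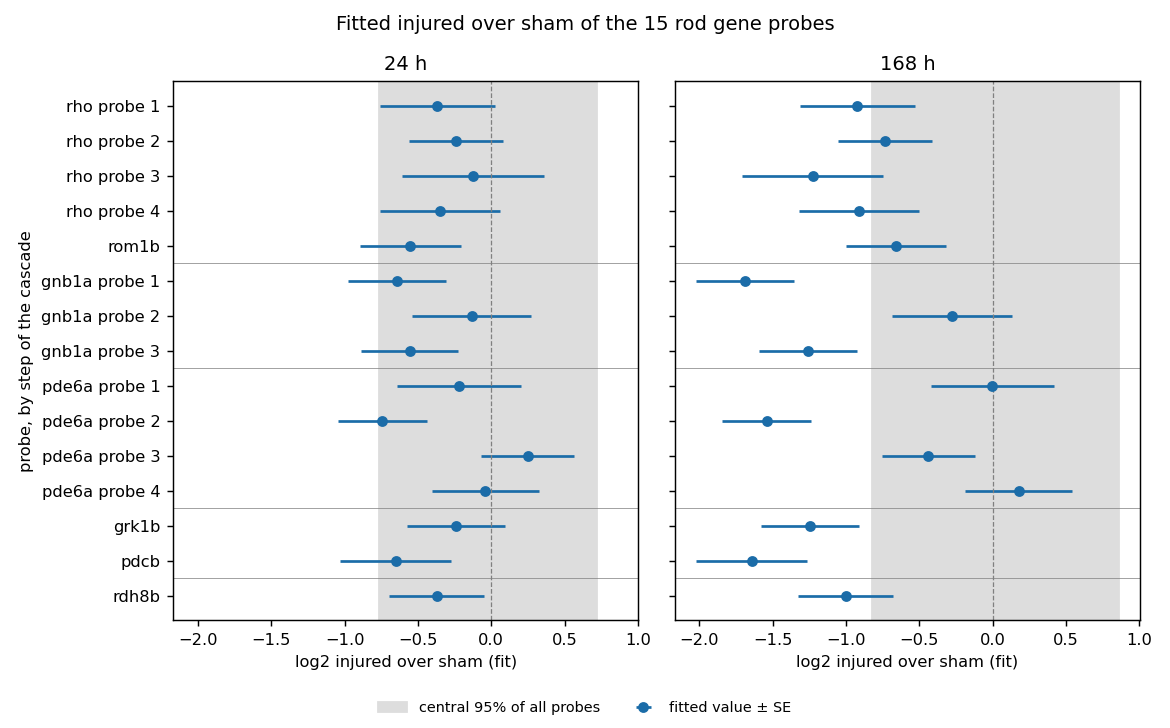
Fitted log2 injured over sham (x axis) of the 15 rod gene probes (y axis), grouped by step of the cascade, at 24 h and 168 h. Points are limma's values, bars are ± 1 SE, and the grey band is the central 95% of all probes, -0.82 to 0.86 at 168 h. At 168 h 9 probes lie below the band, and rho probe 2, rom1b, gnb1a probe 2 and 3 pde6a probes lie within it.

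By step of the cascade, with each gene represented by its brightest probe, the medians were below 0 at 168 h. The median was -0.70 for the opsin and disc genes, -1.26 for the G protein, -1.54 for phosphodiesterase and -1.44 for the kinase and phosducin. The opsin and disc median rests on rho probe 2, which held saturated pixels, and rom1b, detected in 0 of 3 injured channels at 168 h. The rho probes 1 and 3, detected on every array without saturated pixels, stood at -0.92 and -1.23, so the place of this step is not settled. Retinal reduction is the rdh8b probe alone and has no place in this order. At 24 h the medians of the other 4 steps lay between -0.74 and -0.40, and at 3 h between -0.33 and 0.00. Each step holds only 1 or 2 genes, and the order of the steps rests on which probe stands for a gene: over all 4 probes the phosphodiesterase median at 168 h was -0.22. Counting genes by their brightest probe, 6 of 7 were lower at an unadjusted p under 0.05 at 168 h, against 3.60% of all probes and 9.25% of the probes detected in both channels of all 9 arrays. The exception was rom1b, and 1 of the 6 is rdh8b, which was detected in no injured channel.

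The difference between time points was tested in the same fit. From 3 h to 168 h the value was lower for 13 of 15 probes, where the median difference of all probes was 0.0015. An unadjusted p under 0.05 was reached by 5 of 15, against 2.42% of all probes in that direction. These were pde6a probes 2 and 3, gnb1a probe 1, pdcb and rdh8b, of which pde6a probe 3 and rdh8b were near the empty positions. The difference was -1.42 ± 0.42 for pde6a probe 2 and -1.56 ± 0.46 for gnb1a probe 1, each with adjusted p = 0.928 in limma. From 24 h to 168 h 2 of 15 had an unadjusted p under 0.05, against 1.86% of all probes, and from 3 h to 24 h the smallest unadjusted p of the 15 was 0.161 in limma. No probe of the array passed the adjusted threshold for any of these differences, so a step between times was not shown for a single rod probe.

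Several probes of 1 gene can be compared on the same array. The probes of rho gave different ratios on single arrays: on 3 h array 1 they gave -0.44, 0.10, -1.27 and -1.06 for probes 1 to 4. Of the 15 pairs of probes of 1 gene, only rho probes 1 and 3 were both detected in every channel without saturated pixels. Their mean difference over the 9 arrays was 0.05, with an SD of 0.49 (two-sided exact sign-flip permutation test, p = 0.773, adjusted p = 0.954 over the 15 pairs). The smallest p this test allows is 0.00391, so a single pair could not pass adjustment over 15 pairs. None of the 15 pairs passed, which therefore does not show that probes of 1 gene agree. By the same test pde6a probe 2 against probes 1, 3 and 4 had unadjusted p = 0.0234, 0.0078 and 0.0391. Differences of pairs other than rho probes 1 and 3 are not given because a probe of each was undetected on some arrays or held saturated pixels.

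**Figure D3:**
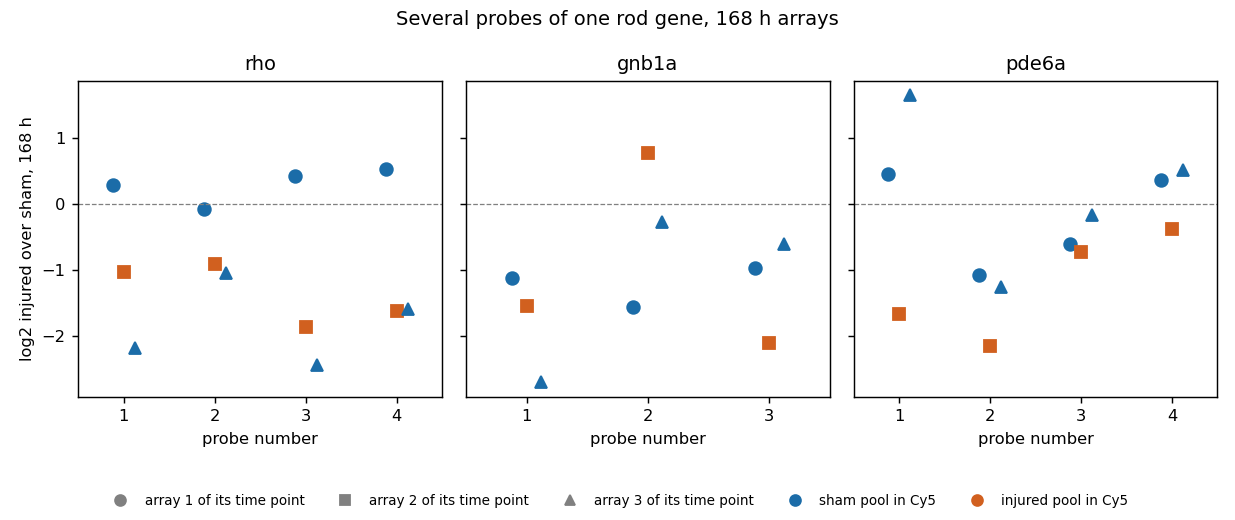
Log2 injured over sham on the 3 arrays of 168 h (y axis) for each probe of rho, gnb1a and pde6a (x axis, probe number). Points are arrays, with shape for the array number and colour for the pool in Cy5. The 4 rho probes have array 1 between -0.07 and 0.53 and arrays 2 and 3 between -2.43 and -0.91. Of the pde6a probes only probe 2 was detected in all 6 channels.

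The arrays of 168 h differed from each other in the rod genes as a whole. On array 1, 9 of 15 ratios were below 0 and 3 were below -1, where 4.27% of all probes lay. On array 2, 14 of 15 were below 0 and 11 below -1, against 11% of all probes, and on array 3 these counts were 13 and 9, against 9.34%. By the array names, array 2 carried injured RNA in Cy5, and arrays 1 and 3 carried it in Cy3.

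In the fit the dye effect had an unadjusted p under 0.05 for 0 of 15 rod probes, against 27.9% of all probes. The mean over the brightest probes of the 7 genes was -0.42, -1.69 and -1.21 on the 168 h arrays, -0.20, -0.71 and -0.39 at 24 h, and -0.00, -0.12 and -0.13 at 3 h. The 3 means at 24 h lay below the 3 h means, and the 168 h mean of array 1 lay within the range of the 24 h means. Each gene's 9 ratios correlated with the mean of the other 6 at r = 0.60 (rom1b) to r = 0.92 (pde6a), as a description of 9 arrays on which the genes share RNA pools and hybridisation.

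Array 2 of 168 h, on which the count of lower rod probes rests most, also had the highest share of detected spots in Cy3 among the injured arrays. In its Cy3 channel, which held sham RNA, 53.2% of the Arabidopsis control probes exceeded the empty positions, whereas on the other injured arrays 20.8% to 40.5% did. In the same channel 71.9% of the zebrafish probes were detected, against 38.7% to 62.7% on the other injured arrays. The Cy3 channels of the 2 control arrays had shares like it, with 54.3% and 50.3% of the Arabidopsis probes and 68.6% of the zebrafish probes detected on each. In Cy5, which held injured RNA on 168 h array 2, 43.3% of its zebrafish probes were detected, against 44.8% on 3 h array 2. The Arabidopsis shares in Cy5 were 9.83% and 17.3% on these arrays. The part of these shares in the rod values was not tested.

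**Figure D4:**
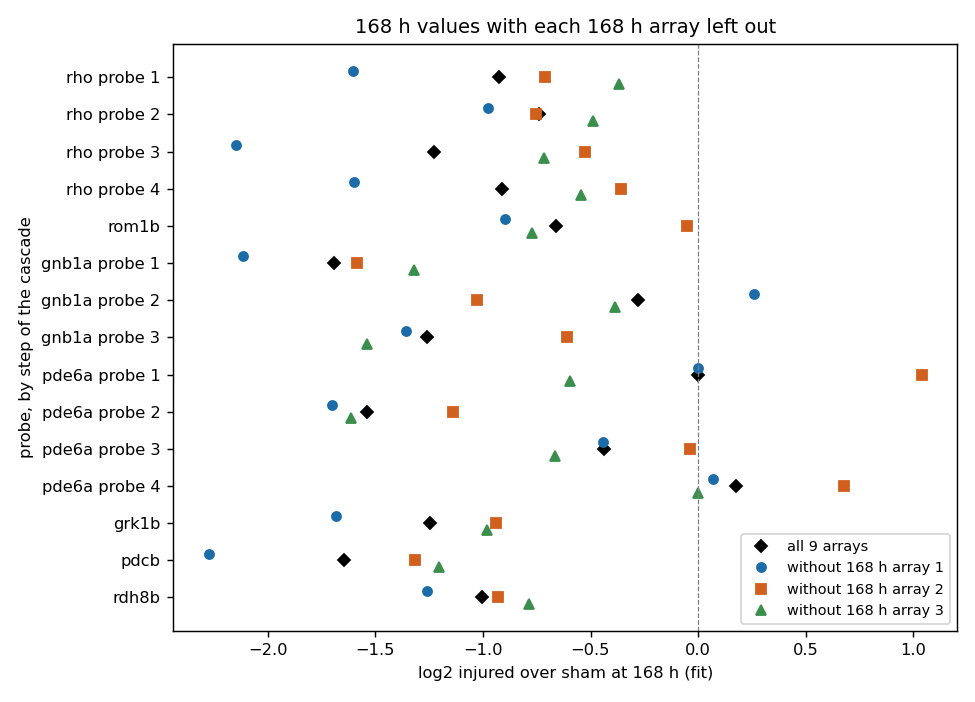
Fitted log2 injured over sham at 168 h (x axis) for each rod gene probe (y axis) with all 9 arrays and with each 168 h array left out. For all 4 rho probes the value without array 1 is the lowest, between -2.14 and -0.98. For pde6a probe 2, gnb1a probe 1 and pdcb all values stay below -1.

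The rod probes were also read by brightness. Of the 1406 probes detected in both channels of all 9 arrays, 9.25% were lower at an unadjusted p under 0.05 at 168 h, and their median was -0.15. All 6 rod probes of this class were below 0 and lower at that threshold, with values from -1.54 to -0.74. In the other 12661 probes 2.97% were lower, and of the 9 rod probes there 8 were below 0 and 4 were lower. Without 168 h array 2 the count in the bright class was 1 of 6, against 1.71% of the class, and without array 3 it was 3 of 6, against 4.41%.

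When the fit and the adjustment were restricted to those 1406 bright probes, 125 passed at 168 h, 61 lower and 64 higher in injured eyes. Among them were pde6a probe 2 (adjusted p = 0.0078), gnb1a probe 3 (adjusted p = 0.0245) and grk1b (adjusted p = 0.0248) in limma, while rho probes 1, 2 and 3 had an adjusted p of 0.112, 0.0799 and 0.112. These calls rest on array 2: without it 0 of the 1406 probes and 0 of the 6 rod probes passed. Without array 3, 55 probes and 2 of the rod probes passed, and without array 1, 313 probes and all 6 rod probes did.

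The levels of single pools show the same comparison on each side. On the log2 intensity scale pde6a probe 2 stood at 12.6 ± 0.25 in sham and 11.2 ± 0.39 in injured pools at 168 h (SD, n = 3 pools each), and the lowest sham pool, 12.4, was above the highest injured pool, 11.4. For gnb1a probe 3 the levels were 14.8 ± 0.31 and 13.6 ± 0.61, with sham pools from 14.5 to 15.1 and injured pools from 13.0 to 14.2. The pools of these 2 probes did not overlap. Nor did those of pdcb, rho probe 2 and, barely, grk1b, or of rdh8b and pde6a probe 3, which were near the empty positions. How many of all probes share this trait was not counted, so it cannot be set against a share.

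Sham pools varied more for grk1b, at 12.4 ± 0.94 against 11.1 ± 0.19 in injured pools, and the lowest sham pool and the highest injured pool both stood at 11.3. For rho probe 1 the levels were 10.8 ± 0.83 and 9.87 ± 0.41, and the ranges overlapped (9.99 to 11.6 against 9.47 to 10.3). In control pools pde6a probe 2 stood at 13.5 ± 0.15, gnb1a probe 3 at 14.3 ± 0.36, grk1b at 12.0 ± 0.19 and rho probe 1 at 11.7 ± 0.43 (SD, n = 3 pools). Control pools were hybridised on their own arrays, so these levels stand beside the others without a test.

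Pools without surgery also differed from each other. On the control arrays, which hold Cy5 over Cy3 of control pools and whose sign has no meaning, pde6a probe 2 gave 0.06 and 0.47, gnb1a probe 3 gave 0.28 and 0.74, and grk1b gave 0.37 and 0.18. For rho probe 1 they were 0.48 and -0.56, for rho probe 3 they were 0.34 and -0.76, for rho probe 4 they were 0.38 and -0.86, and for pdcb 0.23 and -0.77. Some of these are as large as ratios at 168 h: the larger value of gnb1a probe 3 exceeds the size of its array 3 ratio, -0.61, and those of rho probes 1 and 3 exceed their array 1 ratios, 0.30 and 0.43. That of pdcb, -0.77, exceeds the size of its array 1 ratio, -0.51. For grk1b the larger value, 0.37, is near the size of its array 1 ratio, -0.38. For pde6a probe 2 the larger value, 0.47, is smaller in size than every 168 h ratio, of which -1.07 is nearest to 0. The rdh8b probe had a foreground of 18099 and 16779 in the 2 channels of control array 2 but 342 and 398 on control array 1, although both arrays carried the same pool in Cy5, and its level in control pools is therefore not used.

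Other genes of the rod outer segment, or shared between rods and cones, were on the array for 19 of 61 names looked up. At 168 h 3 of 19 were lower and 1 was higher at an unadjusted p under 0.05, against 3.60% and 4.23% of all probes, and their median was -0.08. Those lower were prph2b, the peripherin of the disc rim, at -1.21 ± 0.36, gnat1, the alpha subunit of rod transducin, at -1.55 ± 0.51, and guca1b, an activator of guanylate cyclase, at -1.07 ± 0.39. The arrays gave 0.91, -2.33 and -2.91 for gnat1, the pattern of the rho probes. The gene higher was gnb5b, a partner of the regulator that switches transducin off, at 0.84 ± 0.38, with 2.12 on array 2 and values near 0 on the others.

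The remaining genes of that list with the smallest p had none under 0.05. The second transducin-type beta subunit gene gnb1b stood at -0.70 ± 0.39, the retinol-binding protein gene rbp4l at -0.61 ± 0.35, the guanylate cyclase gene gucy2d at -0.40 ± 0.33 and crx, a transcription factor of photoreceptors, at 0.35 ± 0.38. Of the 19 genes 5 were detected in both channels on all 9 arrays, which are prph2b, gnat1, guca1b, gnb1b and rbp4l. All 5 of these had a value below 0 at 168 h.

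Cone genes, which serve the same cascade in the photoreceptors for bright light, showed values of the same sign. Of 15 measured cone genes 14 were below 0 at 168 h and 6 were lower at an unadjusted p under 0.05, against 49.8% and 3.60% of all probes, with a median of -0.56 and array medians from -1.05 to 0.15. Of these 15 genes 8 were detected in both channels of all 9 arrays, a class in which 9.25% of probes were lower. Whether rod and cone genes differ was not tested. Examples are the cone transducin gene gnb3b at -1.54 ± 0.49 and the blue-sensitive opsin gene opn1sw2 at -1.12 ± 0.32.

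The lists for other cell types had medians near 0 or above at 168 h, except red blood cell and lens genes. The inner retina list had a median of 0.13 (array medians -0.40 to 0.46), with 0 of 14 lower at an unadjusted p under 0.05. The Mueller glia list had 0.10 (array medians -0.34 to 0.44), with 1 of 8 lower and 2 higher. The pigment epithelium list had a median of 0.58 (4 of 4 genes above 0, array medians 0.17 to 1.36), the surface epithelium list 0.40 (16 of 17 above 0, array medians 0.11 to 0.71) and the ribosomal protein genes 0.52 (67 of 70 above 0, array medians 0.11 to 0.96). The leukocyte list stood at 0.22 (7 of 9 above 0, array medians 0.09 to 0.39) and the lens list at -0.14 (4 of 10 above 0, array medians -0.23 to 0.36). The red blood cell list stood at -0.38 (1 of 3 above 0, array medians -0.52 to -0.34) and the muscle list at 0.24 (12 of 18 above 0, array medians -0.55 to 0.58). Detected in both channels of all 9 arrays were 2 of 14 inner retina, 2 of 8 Mueller glia, 1 of 4 pigment epithelium and 5 of 17 surface epithelium genes. For leukocyte genes it was 1 of 9, for lens 0 of 10, for muscle 2 of 18, for red blood cell 2 of 3 and for ribosomal protein 67 of 70. Except for the red blood cell and ribosomal protein lists, these medians rest mostly on probes not detected on every array. The part of these lists in the rod values was not tested.

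Some genes outside the cascade followed the rod profile closely from array to array. Among 960 probes of other named genes detected in both channels on all 9 arrays, the best Pearson correlations with the mean profile of the 7 genes were those of aldocb, a brain-type aldolase of glycolysis (r = 0.98), 1 probe each of pde6hb and pde6ha, inhibitory subunits of cone phosphodiesterase (0.96 and 0.95), ndufs1, a subunit of respiratory complex I (0.95), and atp1b2b, a sodium pump subunit (0.92). Their fitted values at 168 h were -0.88, -1.28, -1.23, -1.13 and -1.56, with SEs from 0.31 to 0.42. The brightest probes of pde6hb and pde6ha, also detected on all 9 arrays, stood nearer to 0, at -0.80 ± 0.30 and -0.56 ± 0.30 (unadjusted p = 0.0194 and 0.0835 in limma). These correlations describe 9 arrays and were picked as the best of 960, so they carry no test.

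The authors' deposited table, which holds 1 log2 value per spot and time, followed the direction of the array names. Its row numbers ran 1 or 2 ahead of the spots in stretches. The offset was chosen to bring its values closest to the mean ratios computed without background subtraction. With it they correlated with those ratios at r = 0.99, 0.99 and 0.98 at 3, 24 and 168 h across probes, which are not independent replicates. Because the offset was fitted to the same ratios, that choice can raise r. Without the offset r was 0.87, 0.89 and 0.88. For the rod genes the authors' deposited table gives 168 h values of -1.47 for pde6a probe 2, -1.28 for gnb1a probe 3, -1.20 for grk1b and -1.36 for pdcb. For the 4 rho probes the authors' deposited table gives -0.83, -0.75, -1.07 and -0.77. The values of pde6a probe 2, gnb1a probe 3 and rho probes 2 and 3 were read with an offset of 1 row.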

How the data were processed

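Eye RNA of injured, sham and control fish was measured on 2-colour oligonucleotide arrays, 11 in all. Per the file headers, the authors' scanner output holds an unnormalised foreground and background intensity for both dyes at each spot. It also holds, per the file headers, the percent of saturated pixels. The authors also deposited a table of log2 values per spot and time point. Per the submitters' processing notes limma was used, with no version; other steps are not given in the sources used here.

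With limma 3.58.1 (R 4.3.3), intensities were corrected by normexp (offset 50) and log2 ratios by loess, in which controls, empty positions and bad spots had weight 0. All 9 injured-against-sham arrays entered 1 fit per probe, which left 5 residual degrees of freedom plus 9.99 from limma's empirical Bayes step. P-values were adjusted by Benjamini-Hochberg over all probes, at a threshold of 0.05. The number of arrays limits the precision: the median SE was 0.339 for a time point. Levels per pool were taken after loess and Aquantile.

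Probes were named by accession through RefSeq gene records of the GRCz12tu assembly (7755 of 14067 probes), used for names only, and otherwise by the symbol in the files. Of the 15 probes 13 matched by accession, 1 (pdcb) by an older symbol and 1 (rho probe 3) by a current symbol.

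The genes named in the text are the 7 rod genes, up to 8 others of the outer segment list with the smallest p at 168 h, and the 5 whose ratios correlated best with the rod profile; the 2 cone examples were chosen after their values were seen. A gene with several probes is represented in counts by the brightest. The list of ribosomal protein genes holds symbols that start with rpl or rps, without the S6 kinase genes, which were removed after the values were seen. The members, lists and tests were chosen with earlier results of these data known. Alternatives covered background correction, normalisation, foreground summary, dye term and orientation, bright probes only, array weights, single time points, the authors' table and each array left out. The row offset of the authors' table was found, after seeing the data, from the 3 neighbouring spots on each side. It was the one with the smallest distance to the ratios signed by the array names.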

Additional observations from a re-analysis of the deposited data

How the results depend on the processing

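The number of rod probes lower at an unadjusted p under 0.05 at 168 h was 10 as reported, 7 to 10 under 7 alternatives, and 5 with plain background subtraction, 6 with normexp at offset 0, 6 with each time fitted alone, 6 when the fit held only probes detected on all 9 arrays (where only 6 rod probes remain) and 1 with Cy5 read as injured. With each array left out it ranged from 3 (without 168 h array 2) to 11, against 2.35% to 4.36% of all probes. For the other alternatives at 168 h, and for the alternatives at 24 h, the share of all probes was not counted. Those counts therefore cannot be set against a share. At 24 h the count of 1 became 3 without background subtraction, 2 with scaling between arrays or the median foreground, and 0 with plain subtraction, offset 0, median centring, print-tip loess, each time alone or Cy5 read as injured, and ranged from 0 to 2 with each array left out, 0 without any one of the 24 h arrays. At 3 h the count remained 0 under every alternative run. The cause of these moves was not tested.

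Over all probes, calls at 168 h were 0 as reported, 7 without background subtraction, 1 with plain subtraction, median centring or the median foreground, and 125 among the bright probes alone, and ranged from 0 to 10 with each array left out, 10 without 168 h array 1. At 24 h they were 1 without background subtraction and 1 among bright probes. For the average over times they were 6 without background subtraction, 1 with median centring and 63 among bright probes. For any time they were 6 among bright probes, and for 168 h minus 3 h and 168 h minus 24 h 1 each with plain subtraction. The dye effect, 1555 probes as reported, was called for 492 with plain subtraction, 2680 with median centring and 65 among bright probes, and for 673 to 1433 with each array left out, fewest without 168 h array 2. With Cy5 read as injured and no dye effect, 387, 200 and 401 probes were called at 3, 24 and 168 h, 1863 for the average and 832 for any time.

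With Cy5 read as injured the 168 h values reversed to 0.055 for pde6a probe 2, 0.016 for pde6a probe 3, -0.42 for pde6a probe 4, 0.76 and 0.87 for gnb1a probes 1 and 2, 0.42 for pdcb, 0.29, 0.069 and 0.045 for rho probes 1, 2 and 3 and 0.19 for grk1b, and pde6a probe 1 stood at -1.26 (adjusted p = 0.0399 in limma). The 24 h values reversed to 0.15, 0.24 and 0.26 for pde6a probes 1, 2 and 4, 0.55, 0.066 and 0.40 for gnb1a probes 1 to 3, 0.62 for pdcb, 0.40, 0.054, 0.53 and 0.18 for rho probes 1 to 4 and 0.094 for grk1b. Under other settings only values near 0 reversed. At 168 h these were pde6a probe 1 (0.0017 without background subtraction, 0.12 with plain subtraction, 0.15 without a dye effect or with each time alone, 0.10 in the authors' deposited table) and pde6a probe 4 (-0.17 with the median foreground). With each array left out these ran from -0.60 to 1.04 and from -0.0014 to 0.68, and gnb1a probe 2 from -1.03 to 0.26. At 24 h they were rho probe 2 (0.092 with median centring), pde6a probe 4 (0.087 with median centring) and rho probe 3 (4.3e-05 with the median foreground). With each array left out the 24 h ranges were -0.34 to 0.40 for pde6a probe 4, -0.54 to 0.056 for rho probe 3, -0.93 to 0.16 for pde6a probe 1 and -0.24 to 0.11 for gnb1a probe 2. Without background subtraction pde6a probe 2 passed at 168 h (-1.49, adjusted p = 0.0142 in limma). With the median over all probes of a gene, the phosphodiesterase step stood at -0.13 (24 h) and -0.22 (168 h) and the G protein step at -0.13 (3 h). The pairs of probes kept 0 calls in all alternatives run, where a single pair could not pass adjustment either.

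A block for scan day or scanner setting was not run, since the files carry no such header, and alternatives for single probes are given for 24 h and 168 h only. Every value is already a paired ratio of the injured and sham pools of 1 array. A replicate block by sham pool number across times, chosen after seeing the data, left 2 residual degrees of freedom. It gave 9 rod probes lower at 168 h and 0 at 24 h, 0 probes called at any single time, 481 for the dye effect, and 0.061 and 0.28 for pde6a probe 1 at 24 h and 168 h. The share of all probes lower in this fit was not counted. Same-numbered arrays of different times had deviations from their time means that correlated at r = -0.142 to 0.243 over 7 pairs of arrays. For the 20 pairs with different numbers r ran from -0.526 to 0.242. Deviations from means of 3 arrays are tied to each other, so these values cannot tell whether same-numbered pools share more than a number. Signals near the empty positions limit rdh8b, rom1b, gnb1a probe 2, rho probe 4 and pde6a probes 1, 3 and 4. Saturated pixels limit rho probe 2 and gnb1a probe 3.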
